A study of Mus musculus with 8 samples.

Results

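The transcript landscape described here is that of control islets: the 4 control libraries among the 8 of the series, taken as the control columns of the deposited count table and scaled in each library to 1000000 reads assigned to genes (CPM). No knockout library enters a level. BKO control 1 came from MIP1-CreERT mice with Sirt6 f/+, that is 1 floxed and 1 wild-type allele, BKO control 2 from MIP1-CreERT mice with Sirt6 +/+, and EKO controls 1 and 2 from Ngn3-Cre mice with Sirt6 +/+. All were males of mixed background aged 8 to 9 weeks, all carried a Cre transgene, and no control without Cre was analysed here. MIP1-CreERT is an insulin-promoter transgene for a Cre recombinase fused to the ligand-binding part of an oestrogen receptor, which tamoxifen activates; Ngn3-Cre is switched on earlier, in the progenitors that give rise to all islet endocrine cells. Whether the BKO controls received tamoxifen is not stated in the labels. Islets were freed from the pancreas with collagenase and rested for 4 h in medium containing 10% serum, and stranded poly(A) libraries were made from about 100 ng of RNA. The genotypes show that the BKO control pair came from different animals; for the EKO control pair nothing in the labels says so, and p-values then rest on a spread that may be technical.

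Islets are clusters of endocrine cells in the exocrine pancreas. Beta cells secrete insulin and amylin, alpha cells glucagon, delta cells somatostatin and PP cells pancreatic polypeptide. Beta cells take up glucose, phosphorylate it and burn it in mitochondria; the ATP formed closes potassium channels, calcium enters and granules fuse with the plasma membrane. The hormones are made as precursors that fold in the endoplasmic reticulum, are cut by prohormone convertases and are stored with granins in dense-core granules.

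Gene reads numbered 43198451 and 37302246 in BKO control islets, against 23673180 and 22330252 in the EKO controls, so that 3 reads, the limit that a count of 0 allows, correspond to 0.0694 to 0.134 CPM (counting error only). Depth, Cre line and any batch that went with the model cannot be told apart. The EKO control libraries stood apart from each other and from the rest. Spearman's rho over the 13366 genes with a mean of at least 1 CPM was 0.972 between the BKO controls and 0.891 between the EKO controls, against 0.922 to 0.953 for the pairs across groups. EKO control 1 lay more than 2-fold from the geometric mean of the other 3 libraries in 1840 of these genes (1418 higher, 422 lower), and EKO control 2 in 2056 (326 higher, 1730 lower), against 889 genes in BKO control 1 and 795 in BKO control 2. Many levels below are therefore given by library. Others are given as a mean ± SD, and a mean with a large SD can turn on 1 library. No library was left out of the means. Since these are bulk samples, fewer cells of a type and less RNA per cell cannot be told apart.

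Promoter stretches of 7 abundant genes are shown first: those of 5 islet hormones (Ins1, Iapp, Gcg, Sst and Ppy) and of the granins Chga and Chgb, because these hormones and granins are the products that the secretory pathway described below carries. They are not the first 7 genes of the order. They are the 120 bases before the annotated start, from RefSeq (GRCm38.p6), 5′ to 3′ on the strand of the gene, at chr19:52264177-52264296 (Ins1, + strand), chr6:142298305-142298424 (Iapp, + strand), chr2:62483654-62483773 (Gcg, - strand), chr16:23890845-23890964 (Sst, - strand), chr11:102101320-102101439 (Ppy, - strand), chr12:102554821-102554940 (Chga, + strand) and chr2:132781522-132781641 (Chgb, + strand). Capitals mark exact matches, on either strand, to TATAAA (the core of a TATA box), GCCATCTG (an E-box form known from insulin promoters), TGACGTCA (the cyclic AMP response element) or CCAAT (the CCAAT box).
Ins1: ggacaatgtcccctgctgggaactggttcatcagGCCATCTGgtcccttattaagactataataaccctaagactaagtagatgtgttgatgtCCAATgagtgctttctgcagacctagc
Iapp: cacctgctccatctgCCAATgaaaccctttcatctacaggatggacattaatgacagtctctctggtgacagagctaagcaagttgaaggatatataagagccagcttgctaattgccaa
Gcg: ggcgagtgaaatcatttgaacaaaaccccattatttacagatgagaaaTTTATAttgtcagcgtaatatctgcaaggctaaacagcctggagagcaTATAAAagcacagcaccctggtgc
Sst: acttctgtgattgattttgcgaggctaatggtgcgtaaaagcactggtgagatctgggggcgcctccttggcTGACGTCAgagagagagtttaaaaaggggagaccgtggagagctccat
Ppy: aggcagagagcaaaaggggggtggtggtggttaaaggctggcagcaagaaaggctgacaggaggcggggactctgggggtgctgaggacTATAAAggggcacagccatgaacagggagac
Chga: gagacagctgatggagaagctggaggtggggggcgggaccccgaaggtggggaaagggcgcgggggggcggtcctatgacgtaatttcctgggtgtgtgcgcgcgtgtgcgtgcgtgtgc
Chgb: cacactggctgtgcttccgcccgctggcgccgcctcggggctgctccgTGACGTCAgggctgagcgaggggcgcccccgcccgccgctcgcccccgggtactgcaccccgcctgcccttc

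In the printed stretches TATAAA begins 24 bases before the start in Gcg and 31 in Ppy, and Gcg holds it once more on the other strand, 72 bases before. TGACGTCA begins 48 bases before the start in Sst and 72 in Chgb. Ins1 holds GCCATCTG 86 bases before its start and CCAAT 27 before, and Iapp holds CCAAT 105 before. The 120 bases of Chga hold none of these strings.

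Over the 250 bases before the start, 6 of the 37 genes with a mean of at least 1000 CPM that the promoter table covers held TGACGTCA (16.2%), against 2.34% of all 15189 genes of the count table that it covers. GCCATCTG occurred in 3 of those 37 (8.11%), against 1.09% of all genes, and TATAAA in 7 of 37 (18.9%), against 13.4%. The lists differed in these strings. TATAAA was found in 13 of 30 genes of the acinar cell list that the promoter table covers (43.3%) and in 0 of 22 of the list of endoplasmic reticulum translocation and folding. CCAAT was found in 18 of those 22 (81.8%), against 39.6% of all genes. A gene was counted if the stretch before any of its annotated starts held the string, so genes with more starts had more chances. These counts describe letters in a window and were not tested.

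Of 22609 symbols, 13366 (59.1%) averaged at least 1 CPM, 9556 at least 10, 1864 at least 100 and 51 at least 1000, while 4666 had 0 reads in all 4 libraries. The 51 genes of the top band took 28.7% and 30.4% of gene reads in BKO control islets, against 29.5% and 36.2% in the EKO controls. Ins2 alone took 10.0% ± 3.18 (SD, n = 4 libraries), the first 4 genes 22.5% ± 4.23, the first 10 genes 25.4% ± 4.31 and the first 1000 genes 57.4% ± 1.91. To reach 50% of the reads took 650 and 585 genes in BKO control islets, against 584 and 395 in the EKO controls. EKO control 2 was thus the library whose reads were most concentrated.

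**Figure D1:**
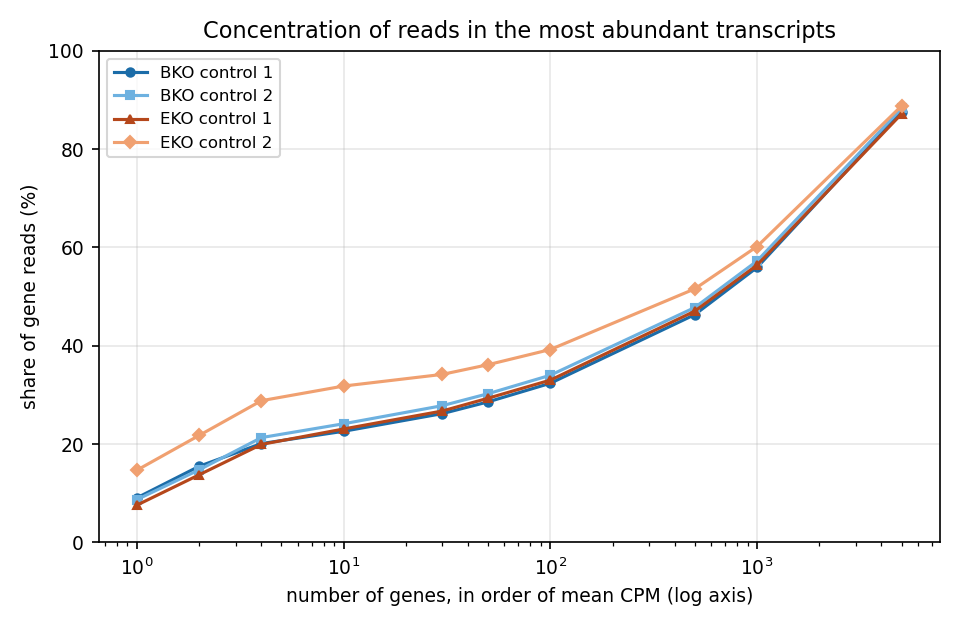
Share of gene reads (%, vertical axis) taken by the most abundant genes, counted along a log axis in order of mean CPM, with a line for each of the 4 control libraries. The first 10 genes hold 22.6%, 24.1%, 23.1% and 31.8% of reads in BKO controls 1 and 2 and EKO controls 1 and 2, and the line of EKO control 2 lies above the others.

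The first 10 genes by mean CPM were Ins2, Ins1, Iapp, Gcg, Chga, Chgb, Scg2, Pcsk2, Cpe and Acly: 4 hormones, 3 granins, 2 prohormone-processing enzymes and ATP citrate lyase, which makes cytosolic acetyl-CoA. The same 10 genes led when any 1 of the 4 libraries was left out. Of the first 30 genes, 6 were islet hormones, 7 belonged to the list of granins and prohormone processing and 3 to that of endoplasmic reticulum folding. Of the first 30, 27 or 28 stayed when a library was left out. Clu and Rgs4 dropped out without EKO control 1, and Eef2 and Sqstm1 without EKO control 2. CPM counts reads and so favours long transcripts: per kilobase of exon, 21 of the first 30 genes were the same.

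The insulin genes headed every library. Ins2 was at 90673 and 87122 CPM in BKO control islets, against 75860 and 146963 CPM in the EKO controls. Ins1 was at 64184 and 60560 CPM in BKO control islets, against 61686 and 70666 CPM in the EKO controls. Ins1 varied little between libraries (coefficient of variation, CV, 7.04%) while Ins2 was highest in EKO control 2 (CV 31.8%). Both genes together held 15.5% and 14.8% of gene reads in BKO control islets, against 13.8% and 21.8% in the EKO controls. Reads of Ins2 exceeded those of Ins1 by 1.41 and 1.44 times in BKO control islets, against 1.23 and 2.08 times in the EKO controls. Per kilobase of exon Ins2 reached 172680 ± 54893 and Ins1 60521 ± 4258 CPM per kilobase (SD, n = 4), and per kilobase of coding sequence 303499 ± 96479 and 198376 ± 13958. Of the 50-base stretches of their transcripts, 1.39% in Ins2 and 0.691% in Ins1 also occur in a gene elsewhere.

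Iapp, which encodes amylin, the peptide co-secreted with insulin, came next. Iapp was at 32273 and 44288 CPM in BKO control islets, against 33225 and 35003 CPM in the EKO controls, or 16.1% to 29.99% of the insulin reads. Gcg, the glucagon precursor of alpha cells, was at 13949 and 21238 CPM in BKO control islets, against 28549 and 35641 CPM in the EKO controls. The groups did not overlap for Gcg, with the EKO controls higher, and insulin reads exceeded Gcg reads by 11.1 and 6.95 times in BKO control islets, against 4.82 and 6.11 times in the EKO controls. In EKO control 2 Gcg stood above Iapp by CPM, while per exon kilobase Iapp was above Gcg in 4 of 4 libraries.

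The other islet hormones averaged more than 10-fold below Gcg by CPM. Ppy, pancreatic polypeptide, was at 2398 and 2898 CPM in BKO control islets, against 2802 and 290 CPM in the EKO controls. Sst, somatostatin, was even across libraries at 1508 and 1611 CPM in BKO control islets, against 1497 and 1213 CPM in the EKO controls. Pyy, peptide YY, was at 812 and 740 CPM in BKO control islets, against 1165 and 308 CPM in the EKO controls. For Ppy and Pyy, EKO control 2 was the lowest library. Ghrl, ghrelin, marks epsilon cells and was the rarest hormone, at 0.278 and 0.456 CPM in BKO control islets, against 4.56 and 8.24 CPM in the EKO controls.

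Per kilobase of exon the hormones ran in the order Ins2, Ins1, Iapp, Gcg, Ppy, Sst, Pyy and Ghrl, and the order was the same per kilobase of coding sequence. Each gene exceeded the next in 4 of 4 libraries on both scales, except that Ppy exceeded Sst in 3, with EKO control 2 the exception. Ppy averaged 4306 ± 2514 and Sst 2021 ± 237 CPM per exon kilobase (SD, n = 4), a gap smaller than the SD of Ppy. The scale ran over more than 4 orders of magnitude, down to 6.37 ± 7.15 for Ghrl, while the median of all genes with at least 1 CPM was 8.23 CPM per exon kilobase.

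**Figure D2:**
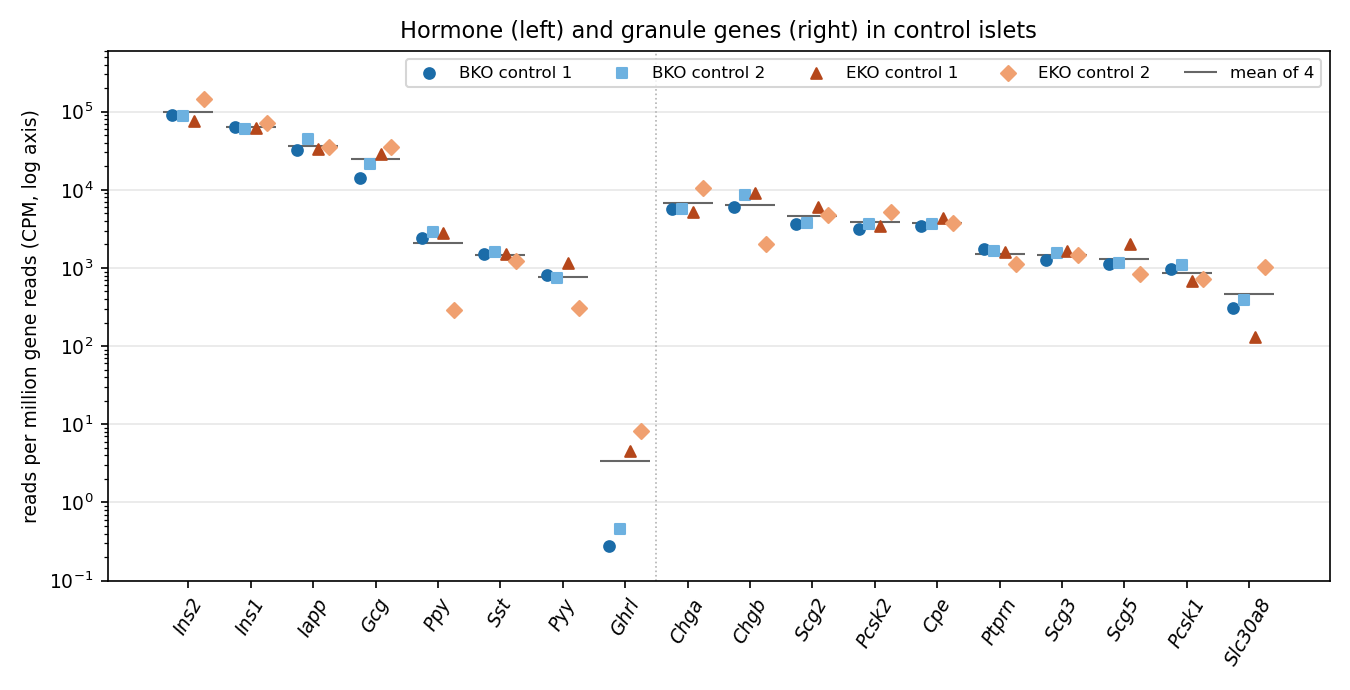
CPM (log axis) of the 8 islet hormones, left of the dotted line, and of 10 granule genes, right of it, in the 4 control libraries; points are libraries and grey bars the mean of 4. Points of a gene lie close together for Ins1, Sst, Cpe and Scg3, and EKO control 2 lies apart for Ppy (290 CPM), Chgb (1994 CPM) and Chga (10645 CPM).

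All 18 genes of granins and prohormone processing had a mean of at least 10 CPM, 16 of at least 100 and 9 of at least 1000, and the list's median was 1059 CPM against 4.21 CPM for all genes. Granins are acidic proteins that condense hormone into granules. Chga, chromogranin A, was at 5606 and 5672 CPM in BKO control islets, against 5158 and 10645 CPM in the EKO controls. Chgb, chromogranin B, was at 5932 and 8455 CPM in BKO control islets, against 9192 and 1994 CPM in the EKO controls. Reads of Chgb relative to Chga thus ranged over nearly an order of magnitude, at 1.06 and 1.49 in BKO control islets, against 1.78 and 0.187 in the EKO controls. Scg2, secretogranin II, was at 3615 and 3777 CPM in BKO control islets, below the 6023 and 4805 CPM of the EKO controls.

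Of the enzymes that cut prohormones, the convertase Pcsk2 was at 3187 and 3643 CPM in BKO control islets, against 3420 and 5188 CPM in the EKO controls. Pcsk1, the other convertase of the regulated pathway, was lower, at 977 and 1089 CPM in BKO control islets, against 678 and 714 CPM in the EKO controls. Per exon kilobase Pcsk2 averaged 817 ± 192 and Pcsk1 172 ± 39.8 CPM (SD, n = 4). Cpe, the carboxypeptidase that trims the cut ends, was even, at 3392 and 3636 CPM in BKO control islets, against 4376 and 3750 CPM in the EKO controls. Furin, a convertase of the constitutive pathway, averaged 23.1 ± 6.82 CPM per exon kilobase. Slc30a8, the zinc transporter of insulin granules, was the most uneven of those at this level, with 157 and 196 CPM per exon kilobase in BKO control islets, against 66.2 and 515 in the EKO controls. Among Chga, Chgb, Scg2 and Cpe, at 3595, 2333, 1811 and 1790 CPM per exon kilobase, Chga exceeded Chgb in 2 of 4 libraries and Scg2 exceeded Cpe in 2 of 4, so these neighbours do not differ beyond their spread.

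Genes of endoplasmic reticulum translocation and folding formed the next layer, with 27 of 31 at 100 CPM or more and a list median of 367 CPM. Hspa5 (BiP), the main chaperone of the compartment, was at 2591 and 2815 CPM in BKO control islets, against 2866 and 1272 CPM in the EKO controls. P4hb, a protein disulfide isomerase, was at 1655 and 1459 CPM in BKO control islets, against 2306 and 840 CPM in the EKO controls. EKO control 2 was the lowest library for 28 of the 31 genes and EKO control 1 the highest for 25. The summed level reached 18073 and 19052 CPM in BKO control islets, against 21438 and 11334 CPM in the EKO controls. Ero1lb, the oxidase enriched in pancreatic cells, did not follow the sum: it was at 929 and 1122 CPM in BKO control islets, against 1178 and 1299 CPM in the EKO controls. Per exon kilobase Ero1lb averaged 267 ± 36.4 CPM, against 31.1 ± 12.4 for its widely expressed relative Ero1l (SD, n = 4).

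Other peptide genes were mostly scarce: 16 of 20 reached 1 CPM and 6 reached 100. Ucn3, urocortin 3, a peptide of mature mouse beta cells, was at 182 and 256 CPM in BKO control islets, against 189 and 706 CPM in the EKO controls, where EKO control 2 was the high library. Ttr, transthyretin, was at 360 and 378 CPM in BKO control islets, against 169 and 687 CPM in the EKO controls. Spp1, osteopontin, which duct cells also make, was at 2288 and 2921 CPM in BKO control islets, against 1880 and 83.2 CPM in the EKO controls. Npy and Gal, neuropeptides, averaged 21.2 ± 28.4 and 9.70 ± 12.9 CPM (SD, n = 4), and both were highest in EKO control 1.

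Of the exocytosis machinery, 26 of 29 genes reached 10 CPM, 15 reached 100 and 1 reached 1000, with a median of 122 CPM. Syt13, a synaptotagmin, headed the list by CPM and per exon kilobase, at 942 and 1110 CPM in BKO control islets, against 1197 and 1183 CPM in the EKO controls. Syt7, a calcium sensor of granule fusion, was at 137 ± 29.3 CPM per exon kilobase, the SNARE protein Vamp2 at 100 ± 6.58 and its partner Snap25 at 74.7 ± 9.72 (SD, n = 4). Their order turned round per coding kilobase, where Vamp2 averaged 635 ± 41.7, Snap25 270 ± 35.1 and Syt7 180 ± 38.5. The median CV of the list was 18.5%, close to the 19.7% of all genes with at least 1 CPM. The complexin Cplx2 averaged 105 ± 37.2 CPM per exon kilobase and Cplx1 0.369 ± 0.274. Per coding kilobase Cplx2 headed the list at 1284 ± 457, above Syt13 (867 ± 91.6) in 4 of 4 libraries. Vamp2, Napa, Syt4 and Rab27a lay between 92.4 and 100 CPM per exon kilobase, but per coding kilobase Vamp2 averaged 635 ± 41.7, Rab27a 441 ± 41.6, Syt4 285 ± 51.2 and Napa 276 ± 22.6, with Vamp2 above Rab27a in 4 of 4 libraries.

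Channels and pumps were led by the calcium pump of the endoplasmic reticulum. Atp2a2 (SERCA2) was at 1739 and 1610 CPM in BKO control islets, against 1446 and 2678 CPM in the EKO controls, and Atp2a3 (SERCA3) averaged 1125 ± 234 CPM (SD, n = 4). The subunits of the ATP-sensitive potassium channel differed in level: the sulfonylurea receptor Abcc8 was at 240 ± 39.4 and the pore Kcnj11 at 48.3 ± 13.3 CPM per exon kilobase. The gap was smaller per coding kilobase, where Abcc8 averaged 245 ± 40.3 and Kcnj11 135 ± 37.4, with Abcc8 above in 4 of 4 libraries. Among voltage-gated calcium channels, Cacna1d was at 17.6 ± 2.37, Cacna1a at 10.2 ± 1.24 and Cacna1c at 5.79 ± 0.935 CPM per exon kilobase. Cacna1d was above Cacna1c in every library on both scales, whereas Cacna1a and Cacna1c changed places per coding kilobase, at 11.3 ± 1.38 and 12.6 ± 2.04. Trpm5, a sodium-conducting channel of beta cells, was at 32.9 and 25.1 CPM in BKO control islets, against 37.8 and 114 CPM in the EKO controls.

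Receptors were of low to middling level, with 17 of 24 at 10 CPM or more, 6 at 100 and 0 at 1000. The growth hormone receptor Ghr averaged 44.4 ± 14.7, the somatostatin receptor Sstr3 37.0 ± 8.90 and the prolactin receptor Prlr 34.9 ± 19.7 CPM per exon kilobase (SD, n = 4), gaps smaller than the larger SD of each pair. Per coding kilobase the order was Prlr, Sstr3 and Ghr, at 247 ± 140, 123 ± 29.6 and 99.99 ± 33.1. Prlr was at 436 and 649 CPM in BKO control islets, against 96.2 and 622 CPM in the EKO controls, with EKO control 1 the low library. The incretin receptors Glp1r and Gipr averaged 28.0 ± 8.05 and 15.8 ± 6.66 and the glucagon receptor Gcgr 18.9 ± 11.5 CPM per exon kilobase. Sstr5, another somatostatin receptor, was at 0.0276 ± 0.0293 and the leptin receptor Lepr at 0.148 ± 0.126. Sstr5 had 0 reads in EKO control 1 and lay near the floor.

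G6pc2, the islet member of the glucose-6-phosphatase family, was the most abundant gene of glucose entry and glycolysis. G6pc2 was at 1856 and 2851 CPM in BKO control islets, against 1245 and 2325 CPM in the EKO controls, or 1094 ± 361 CPM per exon kilobase (SD, n = 4). On the same scale the hexokinases of high affinity for glucose, Hk1, Hk2 and Hk3, were at 4.95 ± 3.43, 2.55 ± 2.63 and 1.14 ± 0.566. G6pc, the liver enzyme, had 0 reads in all 4 libraries. The glucose transporter Slc2a2 (GLUT2) was uneven, at 26.5 and 39.3 CPM per exon kilobase in BKO control islets, against 10.8 and 80.3 in the EKO controls. Slc2a1 (GLUT1) ran the other way, at 22.4 and 13.8 in BKO control islets, against 46.5 and 6.99 in the EKO controls. Reads of Slc2a2 relative to Slc2a1 were 2.02 and 4.87 in BKO control islets, against 0.397 and 19.6 in the EKO controls.

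Several glycolytic genes cannot be placed in the order. Gapdh averaged 2.20 CPM and Eno1 0.0134 CPM, and 82.5% and 72.2% of their 50-base stretches also occur in genes elsewhere, which leaves their place uncertain; reads with several alignments stand in a row of their own and count for no gene. Pgk1, with 68.0% shared, averaged 9.58 CPM. Reads with more than 1 alignment were 31.9% to 39.7% of all reads in the control libraries. Of the 20 genes of the list, 7 shared at least 10% of their stretches, and 5 of 29 in the mitochondrial list.

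The genes of mitochondrial pyruvate and citrate cycle metabolism formed an even middle layer. All 29 exceeded 1 CPM on average and 27 exceeded 10, and the summed level was 3277 and 3297 CPM in BKO control islets, against 3102 and 2996 CPM in the EKO controls. Mdh1 and Mdh2, the malate dehydrogenases of cytosol and mitochondria, averaged 162.1 ± 25.03 and 136.2 ± 21.05 CPM per exon kilobase (SD, n = 4), with Mdh1 above in 4 of 4 libraries. Pcx, pyruvate carboxylase, averaged 42.4 ± 11.2 and Pdha1, a subunit of pyruvate dehydrogenase, 41.1 ± 2.19, but the pair was not level on both scales: per kilobase of coding sequence Pcx averaged 50.9 ± 13.5 and Pdha1 99.99 ± 5.33, with Pdha1 above in 4 of 4 libraries. The kinases that switch off that dehydrogenase, Pdk1 to Pdk4, lay between 6.47 and 7.64 CPM per exon kilobase and between 11.9 and 29.5 CPM per coding kilobase.

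Beta cell transcription factors were lower than the genes of the secretory pathway, with 21 of 24 at 10 CPM or more, 10 at 100 and 0 at 1000. Neurod1, an activator of insulin genes, averaged 116 ± 28.6, Pax6 97.0 ± 5.95, Isl1 57.5 ± 6.43, Pdx1 26.9 ± 5.77, Nkx2-2 25.7 ± 9.68 and Nkx6-1 23.7 ± 8.50 CPM per exon kilobase (SD, n = 4). Per coding kilobase Nkx2-2 averaged 79.0 ± 29.8, Pdx1 68.1 ± 14.6 and Nkx6-1 67.9 ± 24.4, so that these 3 lay within their SDs on both scales. Foxa2, at 22.3 ± 7.84 CPM per exon kilobase, was level with them on that scale and lower, at 34.8 ± 12.3, per coding kilobase. Atf4 and Xbp1, factors of the stress response of the endoplasmic reticulum, headed the list at 341 ± 15.4 and 292 ± 87.8. Mlxipl (ChREBP), a glucose-responsive factor, was at 39.1 and 41.9 CPM per exon kilobase in BKO control islets, against 17.8 and 130 in the EKO controls. EKO control 2 was the highest library for 14 of the 23 factors with at least 1 CPM and EKO control 1 the lowest for 13.

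Mafa, the beta cell member of its family in adult mice, averaged 12.5 ± 5.56 CPM per exon kilobase (SD, n = 4). By library it was at 16.7 and 9.37 CPM per exon kilobase in BKO control islets, against 6.37 and 17.8 in the EKO controls, so both groups held a higher and a lower library. Factors of alpha and delta cells were low: Hhex, a delta cell factor, averaged 7.13 ± 1.24 and Irx2 4.995 ± 1.73 CPM per exon kilobase. None of the 8 in that list reached 100 CPM, although Gcg was the fourth gene of the order. Of the 9 genes in the table from the list of other alpha cell genes, Tmem27 (605 ± 124 CPM) and Tm4sf4 (392 ± 24.9 CPM) were the most abundant by CPM. In bulk islets their reads cannot be assigned to alpha cells.

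Genes said to be disallowed in beta cells, because mature beta cells keep them low, were low but detected. All 26 had a mean of at least 1 CPM and 0 reached 100, and the list's median was 8.24 CPM, against 25.4 CPM for all genes with at least 1 CPM. Ldha, lactate dehydrogenase A, was at 50.4 and 18.4 CPM in BKO control islets, against 156 and 6.63 CPM in the EKO controls. The summed level was 360 and 227 CPM in BKO control islets, against 744 and 98.7 CPM in the EKO controls. EKO control 1 was the highest library for 23 of the 26 genes and EKO control 2 the lowest for 25. The lists of stellate, acinar and immune cells were also highest in EKO control 1, with values below, and their part in this result was not tested.

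Progenitor and dedifferentiation genes reached 1 CPM in 10 of 16 cases and 100 CPM in 0. Nanog, Pou5f1 and Pax4 had 0 reads. Neurog3 (Ngn3), the factor whose promoter drives Cre in the EKO model, was at 1.30 and 4.26 CPM in BKO control islets, against 1.69 and 4.75 CPM in the EKO controls. Aldh1a3, a marker of failing beta cells in diabetic mice, was at 28.9 and 1.39 CPM in BKO control islets, against 176 and 5.51 CPM in the EKO controls, and so differed within both groups. In the cell cycle list, the D-type cyclin Ccnd2 averaged 517 ± 182 CPM and the proliferation marker Mki67 10.9 ± 2.83 CPM (SD, n = 4).

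The sirtuins, NAD-dependent deacylases, were even across libraries: their summed level was 206 and 202 CPM in BKO control islets, against 189 and 196 CPM in the EKO controls. Sirt2, mostly cytosolic, averaged 46.4 ± 4.19 and Sirt7, a nucleolar member, 21.7 ± 2.67 CPM per exon kilobase (SD, n = 4), and each exceeded the next in 4 of 4 libraries. Mitochondrial Sirt3 and nuclear Sirt6 followed at 8.50 ± 2.03 and 8.01 ± 2.22. They do not differ beyond their spread, and their order turned round per kilobase of coding sequence. Sirt6, the gene the study deletes, was at 19.9 CPM in BKO control 1, which carries 1 floxed allele, and 13.1 CPM in BKO control 2, against 25.1 and 16.3 CPM in the EKO controls. Sirt1 averaged 6.67 ± 1.03, Sirt4 5.19 ± 0.476 and Sirt5 3.67 ± 0.315. The median CV of the 7 genes was 12.3%, against 19.7% for all genes with at least 1 CPM.

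Chromatin modifiers had a list median of 9.06 CPM per exon kilobase against 8.01 for the sirtuins, and of 47.2 CPM against 18.6 CPM without regard to length. By CPM, Hdac6, a mainly cytosolic deacetylase, led at 195 and 253 CPM in BKO control islets, against 174 and 483 CPM in the EKO controls. Dnmt3a, a de novo DNA methyltransferase, averaged 132 ± 29.9 CPM and the acetyltransferase Ep300 117 ± 10.2 CPM (SD, n = 4). Of 22 housekeeping genes, 8 shared under 10% of their 50-base stretches with genes elsewhere and could be placed. Of these Hprt (117 ± 7.55 CPM), Eef2 (1351 ± 100 CPM), Sdha (233 ± 19.3 CPM) and Tbp (21.3 ± 2.00 CPM) had a CV of 6.45% to 9.43%, and Hsp90ab1 and Fth1 one of 13.8% and 28.5%. B2m, a subunit of class I histocompatibility molecules, was uneven, at 1137 and 597 CPM in BKO control islets, against 558 and 174 CPM in the EKO controls (CV 64.3%). The other 14 shared at least 10%. Actb, with 14.2% shared, was at 490 and 319 CPM in BKO control islets, against 720 and 204 CPM in the EKO controls (CV 51.8%).

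**Figure D3:**
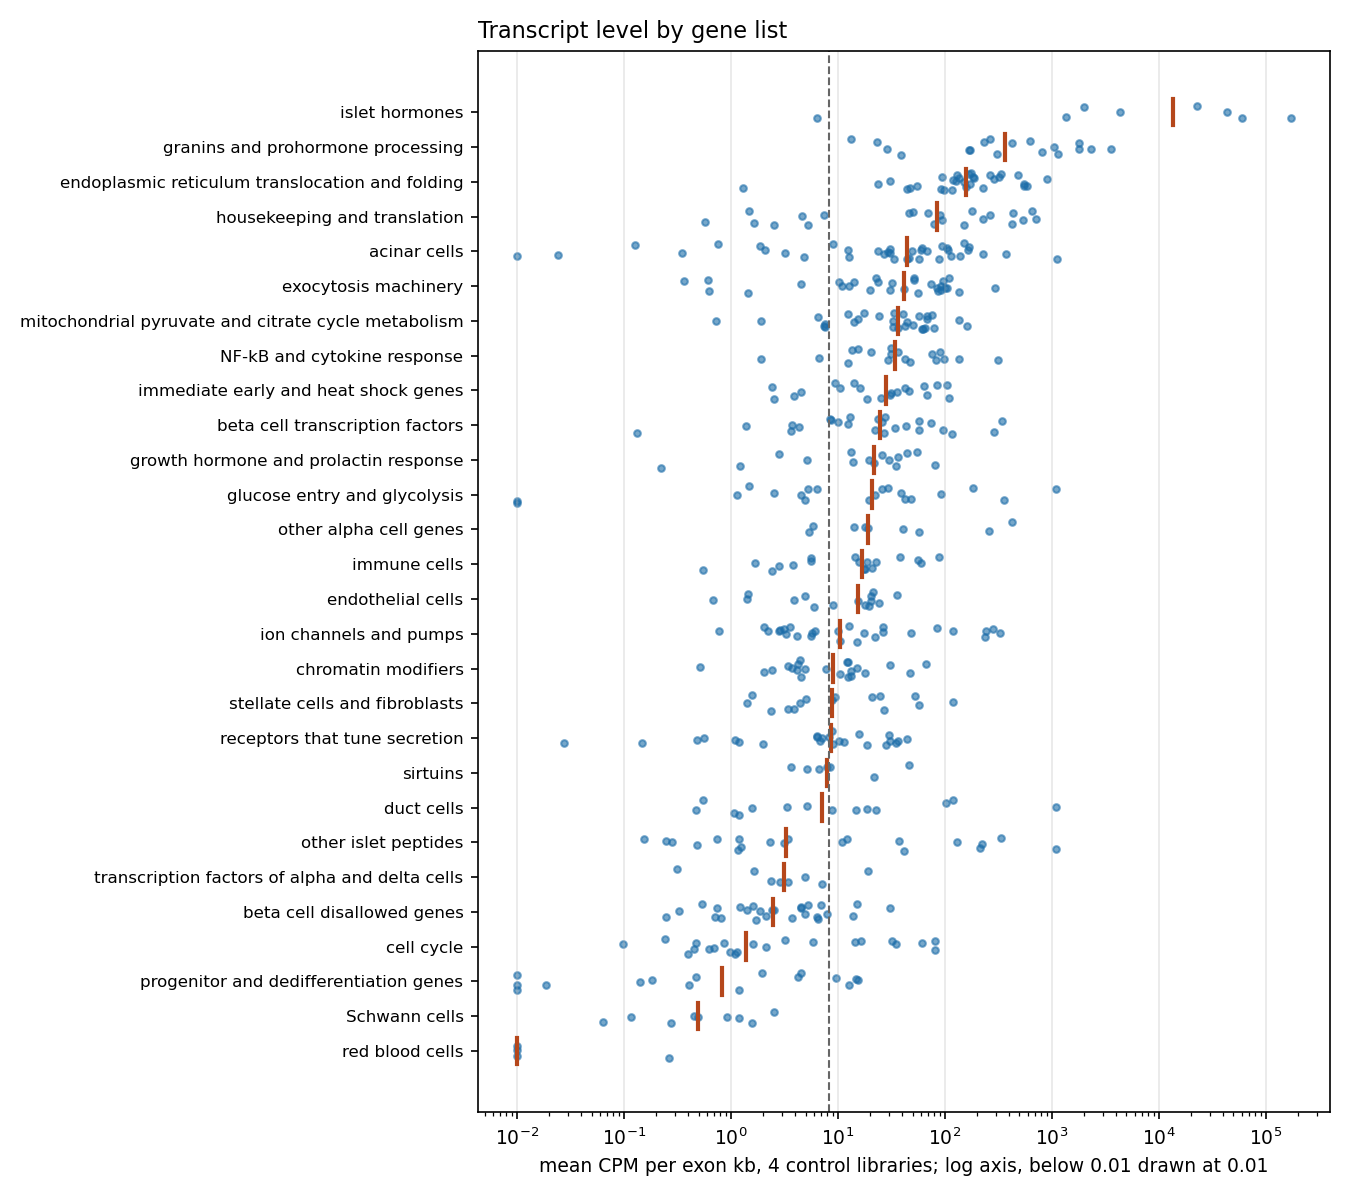
Mean CPM per kilobase of exon over the 4 control libraries (log axis) for each gene of 28 lists, in order of the list median, shown as a bar; the dashed line is the median of all genes with at least 1 CPM, 8.23. Islet hormones, granins and prohormone processing, and endoplasmic reticulum genes lie at the top; red blood cell, Schwann cell and progenitor genes at the bottom.

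RNA of other cell types was present in every library and unequal between them. The 37 acinar cell genes, digestive enzymes of the exocrine pancreas for the most part, summed to 1151 and 905 CPM in BKO control islets, against 11101 and 752 CPM in the EKO controls. EKO control 1 was the highest for 31 of the 33 acinar genes with at least 1 CPM. The chymotrypsinogen Ctrb1 was at 378 and 148 CPM in BKO control islets, against 3294 and 150 CPM in the EKO controls. Without EKO control 1 its mean was 226 CPM, and 1 rather than 10 acinar genes averaged 100 CPM or more. Bhlha15 (Mist1), a factor of secretory cells, did not follow the enzymes, at 99.8 and 106 CPM in BKO control islets, against 81.1 and 47.5 CPM in the EKO controls.

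Stellate cell and fibroblast genes summed to 691 and 299 CPM in BKO control islets, against 3576 and 203 CPM in the EKO controls. The collagen gene Col1a1 was at 34.3 and 8.85 CPM in BKO control islets, against 550 and 1.43 CPM in the EKO controls. Immune cell genes summed to 496 and 329 CPM in BKO control islets, against 973 and 301 CPM in the EKO controls, and duct cell genes to 2850 and 3553 CPM in BKO control islets, against 3303 and 823 CPM in the EKO controls. Spp1 made up most of the duct sum in every library except EKO control 2. Endothelial genes differed less, at 644 and 566 CPM in BKO control islets, against 859 and 619 CPM in the EKO controls, and Kdr, a receptor for vascular endothelial growth factor, averaged 107 ± 22.0 CPM (SD, n = 4). Schwann cell genes summed to 13.2 to 45.7 CPM, and 4 of 6 red blood cell genes had 0 reads in all libraries.

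Immediate early genes, which are induced within minutes of a stimulus such as tissue dissociation, were unequal as well: of the 20 genes of the immediate early and heat shock list, 13 were highest in EKO control 1, 6 in BKO control 1 and 1 in BKO control 2. The list summed to 1507 and 1240 CPM in BKO control islets, against 2803 and 717 CPM in the EKO controls. Egr1 was at 54.6 and 90.5 CPM in BKO control islets, against 575 and 56.7 CPM in the EKO controls, and Fos at 31.4 and 52.2 CPM in BKO control islets, against 291 and 17.7 CPM in the EKO controls. Jun was highest in BKO control 1, at 181 and 116 CPM in BKO control islets, against 133 and 28.7 CPM in the EKO controls. So was Hspa1a, an inducible heat shock protein, at 25.2 and 6.43 CPM in BKO control islets, against 10.2 and 4.57 CPM in the EKO controls. Of the 50-base stretches of Hspa1a, 60.3% occur in genes elsewhere, which leaves its level uncertain. The sums moved with the acinar and stellate sums across the EKO controls, and their part in those results was not tested.

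**Figure D4:**
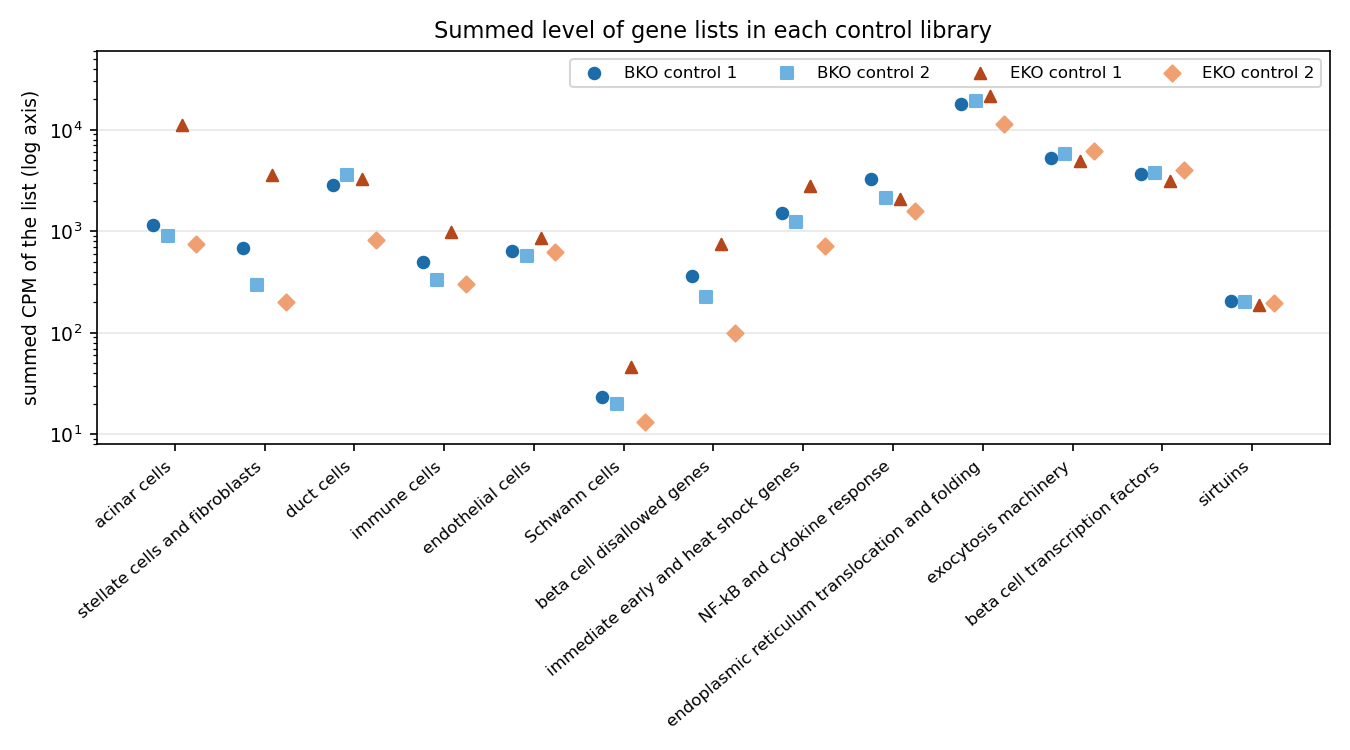
Summed CPM (log axis) of 13 gene lists in the 4 control libraries, each point a library. EKO control 1 stands at 11101 CPM for acinar cells and 3576 CPM for stellate cells and fibroblasts, while exocytosis, beta cell factor and sirtuin sums lie close together.

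Among the 1864 genes with at least 100 CPM, the spread over the 4 libraries ran from a CV of 0.981% to one of 180%. Atad1, an ATPase that clears misplaced tail-anchored proteins from mitochondria, was the most even, at 153 and 157 CPM in BKO control islets, against 153 and 154 CPM in the EKO controls. Others with a CV below 2.3% were Hnrnpul2, Ano6, Yme1l1, Tmem33, Nbr1, Laptm4a, Rraga, Tmem184b and Mtch2. The 10 largest CVs belonged to the matrix genes Col1a1, Col1a2, Fn1, Col3a1, Tnc and Timp1, to Reg1, Try5 and Ctrb1 of the acinar list, and to Ceacam1, an adhesion molecule. All 10 were highest in EKO control 1. Of the 50 genes of largest CV, 32 were highest in EKO control 1 and 34 lowest in EKO control 2. Beyond those lists, Clu, the secreted chaperone clusterin, was at 834 and 802 CPM in BKO control islets, against 4117 and 253 CPM in the EKO controls. Rgs4, a brake on G-protein signals, was at 1828 and 1506 CPM in BKO control islets, against 1803 and 296 CPM in the EKO controls.

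The design allows 1 comparison within the controls, MIP1-CreERT against Ngn3-Cre mice, which shows how far the landscape depends on the model the controls belong to. Among the 15041 genes tested with edgeR's quasi-likelihood test and Benjamini-Hochberg adjustment, 1 was called (0.00665%). It was Gbp8, a guanylate-binding protein induced by interferon gamma, at 261 and 272 CPM in BKO control islets, against 6.42 and 7.25 CPM in the EKO controls. The log2 fold change was 5.21 ± 0.23 (SE, n = 2 per group, edgeR adjusted p = 0.00371). Of its 50-base stretches 17.0% occur in genes elsewhere, and over the alternative fits the adjusted p ran from 1.39e-103 with DESeq2 to 0.104 with the 4 control libraries alone, so the call rests on the spread of all 8 libraries. Without BKO control 1 or BKO control 2 the adjusted p in edgeR was 0.0523 and 0.0593, in a fit that assumes the lone library to vary like the other groups. Model, tamoxifen, depth and any batch cannot be told apart here.

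A few genes that were nearly silent in the EKO controls, Esr1, Cldn8 and Krtap13-1 among them, had larger differences than Gbp8. They were not called in the main edgeR fit. DESeq2 called Esr1, Cldn8 and Krtap13-1, and edgeR without the filter on low counts called Esr1 and Krtap13-1 but not Cldn8. Esr1, the oestrogen receptor, was at 587 and 1527 CPM in BKO control islets, against 0.507 and 0.0448 CPM in the EKO controls, a log2 fold change of 11.81 ± 1.14 (SE; edgeR adjusted p = 0.081). The MIP1-CreERT transgene carries oestrogen receptor sequence, and its part in the counts was not tested. Cldn8, a claudin of tight junctions, was at 75.5 and 309 CPM in BKO control islets, against 0.169 and 0 CPM in the EKO controls. Krtap13-1, a keratin-associated protein gene, was at 5.53 and 7.21 CPM in BKO control islets and had 0 reads in both EKO controls; against a floor of 3 reads in each EKO control library it was at least 48.8-fold higher. Gbp4, another guanylate-binding protein, was at 515 and 235 CPM in BKO control islets, against 11.5 and 7.93 CPM in the EKO controls (log2 5.20 ± 0.50; edgeR adjusted p = 0.081). The other genes of smallest p with higher values in the BKO controls were Dnahc8, Serpina3h, Cxcl10 and Ripk2. Their log2 fold changes were 1.49 to 8.84, with edgeR adjusted p of 0.081 to 0.127. DESeq2 called these genes and Gbp4. Without the filter on low counts edgeR called Gbp4, Dnahc8, Serpina3h and Cxcl10 but not Ripk2.

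In the other direction edgeR called 0 genes and DESeq2 57, Pdk4 and Emcn among them. Rps2 and Rps18, ribosomal proteins, had log2 fold changes of -2.90 ± 0.34 and -2.79 ± 0.48 (SE; edgeR adjusted p = 0.129 and 0.288), but 79.0% and 86.7% of their stretches occur in genes elsewhere. The pseudogene Tmem181b-ps had 0 reads in BKO control islets, against 7.48 and 19.0 CPM in the EKO controls, at least 177-fold lower in the BKO controls against a floor of 3 reads in each BKO control library, with 70.8% of its stretches shared. Pdk4, a kinase that switches off pyruvate dehydrogenase, was at 10.9 and 14.8 CPM in BKO control islets, against 46.5 and 34.3 CPM in the EKO controls. Emcn, an endothelial sialomucin, was at 33.96 and 34.2 CPM in BKO control islets, against 78.9 and 64.6 CPM in the EKO controls. Also low in the BKO controls were St8sia3, Fxyd6, Nrp1, Rab3il1 and 2010107G23Rik, with log2 fold changes of -1.12 to -2.29. Unadjusted p was under 0.05 for 833 genes (5.54%), 488 of them higher (3.24%) and 345 lower (2.29%) in the BKO controls. DESeq2 called 218 genes (1.45%), 161 of them higher and 57 lower in the BKO controls.

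Against that background 0 members of the lists that head the order were called in edgeR, DESeq2 called Ghrl, Xbp1 and Pdk4, and members with an unadjusted p under 0.05 numbered 1 of 8 islet hormones, 2 of 18 genes of granins and prohormone processing, 0 of 31 of the endoplasmic reticulum, 0 of 29 of exocytosis, 0 of 18 tested of glucose entry, 3 of 29 of mitochondrial metabolism (Pdk1 and Pdk4 lower, Me1 higher), 1 of 24 beta cell factors and 0 of 7 sirtuins. The hormone was Ghrl, with a log2 fold change of -4.20 ± 0.81 (SE; edgeR adjusted p = 0.356). For Scg2 it was -0.62 ± 0.23 and for Pcsk1 0.50 ± 0.20, with adjusted p of 0.868 and 0.890 in edgeR. For the factor Xbp1 it was 0.67 ± 0.17, with an adjusted p of 0.546 in edgeR. With 2 libraries a group, differences the size of the spread between the EKO controls were not detectable.

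Shares above 20% at an unadjusted p under 0.05 were seen in the lists of NF-kB and cytokine response (61.1%), of transcription factors of alpha and delta cells (37.5%), of growth hormone and prolactin response and of immune cells (33.3% each), of other alpha cell genes (22.2%) and of duct cells (21.4%), with 0 calls in edgeR in each. The lists were chosen with earlier results of these data known, so these shares and those below describe the lists and do not test them. Of 18 genes of the NF-kB and cytokine response, 10 were higher in the BKO controls at an unadjusted p under 0.05 and 1, the interleukin 1 receptor Il1r1, was lower, with a list median of 1.87 on the log2 scale against -0.04 for all genes tested. The groups did not overlap in 15 of the 18 with the BKO controls above. Among all 15041 genes tested, 3198 lay above without overlap, and 32% did not overlap in either direction. Cxcl10, a chemokine that interferon induces, was at 177 and 143 CPM in BKO control islets, against 5.11 and 4.25 CPM in the EKO controls (log2 5.02 ± 0.53, edgeR adjusted p = 0.105). Nfkbia, the inhibitor that NF-kB itself induces, was at 285 and 206 CPM in BKO control islets, against 88.8 and 37.8 CPM in the EKO controls. BKO control 1 was the highest library for 16 of the 18 genes and EKO control 2 the lowest for 16. The list's sum, 3304 and 2133 CPM in BKO control islets, against 2059 and 1599 CPM in the EKO controls, was closer than most members were: Il1r1, its most abundant gene, was at 621 and 643 CPM in BKO control islets, against 767 and 1308 CPM in the EKO controls, and Lcn2, a secreted iron-binding protein, was highest in EKO control 1 (515 CPM). DESeq2 called 3 of the list, Cxcl10, Nfkbia and Icam1.

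Of the 8 transcription factors of alpha and delta cells, 3 were lower in the BKO controls at an unadjusted edgeR p under 0.05. For 6 of the 8 the BKO controls lay below the EKO controls without overlap. Among all 15041 genes tested, 1609 lay below without overlap, and 32% did not overlap in either direction. Irx2 was at 7.71 and 11.0 CPM in BKO control islets, against 16.7 and 17.1 CPM in the EKO controls (log2 -0.92 ± 0.38, edgeR adjusted p = 0.89). Irx1, of the same family, was at 4.10 and 4.05 CPM in BKO control islets, against 6.72 and 7.57 CPM in the EKO controls, and Pou3f4 was below 2 CPM in every library. Of 9 other alpha cell genes 2 were lower. Slc38a5, an amino acid transporter, was at 3.96 and 6.33 CPM in BKO control islets, against 11.0 and 22.3 CPM in the EKO controls (log2 -1.78 ± 0.45, edgeR adjusted p = 0.545), and DESeq2 called it. Dpp4, a peptidase that cuts incretins, was at 59.6 and 84.1 CPM in BKO control islets, against 103 and 133 CPM in the EKO controls. Gcg also lay lower in the BKO controls without overlap (values above). Of 14 duct cell genes 3 were lower, namely Krt7, Cldn4 and Onecut2. All 3 were highest in EKO control 1, and Onecut2 was lowest in EKO control 2. Krt7 was at 376 and 373 CPM in BKO control islets, against 668 and 545 CPM in the EKO controls.

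Of 15 genes of the growth hormone and prolactin response, 5 were higher in the BKO controls at an unadjusted p under 0.05. Cish, a feedback inhibitor of the prolactin and growth hormone receptors, was at 156 and 219 CPM in BKO control islets, against 27.1 and 41.3 CPM in the EKO controls (log2 2.37 ± 0.34, edgeR adjusted p = 0.208). Socs2, of the same family, was at 98.0 and 123 CPM in BKO control islets, against 28.9 and 27.3 CPM in the EKO controls. Tph1, the enzyme of serotonin synthesis that prolactin induces in mouse islets, was at 26.9 and 347 CPM in BKO control islets, against 0.127 and 0.0896 CPM in the EKO controls (log2 10.64 ± 1.87, edgeR adjusted p = 0.294). DESeq2 called 4 of the list higher, namely Tph1, Cish, Socs2 and Ehhadh. Published lines of MIP-CreERT mice are known to carry a human growth hormone minigene, and its part in these values was not tested.

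Of 18 immune cell genes, 6 were lower in the BKO controls at an unadjusted p under 0.05, with 0 higher. C1qa, a complement component of macrophages, was at 33.6 and 38.7 CPM in BKO control islets, against 116 and 59.8 CPM in the EKO controls (log2 -1.34 ± 0.29, edgeR adjusted p = 0.44). The other 5, C1qb, C1qc, Csf1r, Emr1 and Tyrobp, are macrophage genes too, and all 6 were highest in EKO control 1, with Csf1r at 5.19 and 9.11 CPM in BKO control islets, against 60.7 and 11.5 CPM in the EKO controls. DESeq2 called C1qa, C1qb and C1qc. Not all of the list went this way: by log2 fold change 12 of the 18 genes lay below 0 and 6 above. Cd68 and Cd14, also of that list, were above, at 0.60 ± 0.46 and 0.44 ± 1.24 (SE). The acinar list had a median log2 fold change of -2.79, although its sum in EKO control 2 was below that of both BKO controls.

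**Figure D5:**
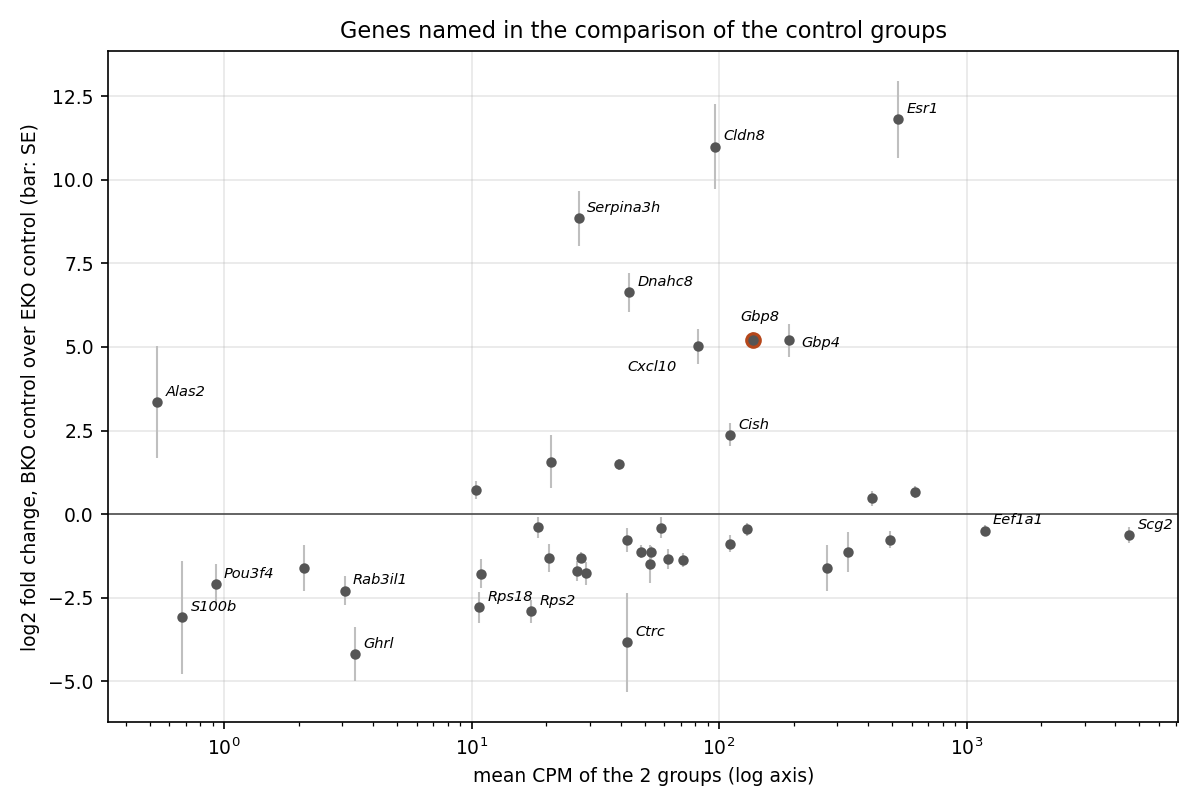
Log2 fold change of BKO controls over EKO controls (bars: SE) against the mean CPM of the groups (log axis) for genes of smallest p in this comparison, over all genes and within each list, without those that had 0 reads in a group. Gbp8, the 1 gene called, is ringed; Esr1 lies at 11.81 and Ghrl at -4.20.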

How the data were processed

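The values deposited are unscaled counts of reads, 1 row for each gene symbol and 1 column for each of the 8 libraries; per the submitters' processing notes TopHat, HTSeq and the build mm9 were used. Neither versions, annotation nor strand setting are given in the sources used here. The table's last rows are reads that name no gene and were left out: in the controls 31.9% to 39.7% of reads had several alignments, 8.19% to 10.1% fell outside genes and 0.105% to 0.127% were ambiguous. Of 22609 symbols, 25 had become dates. Near-identical genes are therefore undercounted, and overlapping or antisense genes are uncertain.

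CPM was computed on gene reads with Python 3.11.15 and pandas 2.3.3. Exon-union lengths, coding lengths and shared 50-base stretches came from GENCODE M21 (GRCm38, a different build from mm9; used for no coordinates of the table), with an exon length for 98.9% of genes of at least 1 CPM. Promoters came from RefSeq (GRCm38.p6). The control contrast was fitted to all 8 libraries in 4 groups with edgeR 4.0.16 in R 4.3.3 (TMM, filterByExpr with a count minimum of 10, quasi-likelihood F test, adjusted p threshold 0.05; biological coefficient of variation 0.431, 4 residual degrees of freedom). DESeq2 1.42.0 and limma-voom (limma 3.58.1) were alternatives, as were other scalings, denominators and libraries left out. The fit was tested on simulated data. The lists, 28 with 517 symbols of which 516 were in the table, and the libraries described were chosen with earlier results of these data known.

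Named genes were the 30 of highest mean CPM; all islet hormones and sirtuins; the 5 highest and the lowest member of every other list; the 10 smallest and 10 largest CVs from 100 CPM; and, between the control groups, calls, the 10 of smallest p in each direction and each list's member of smallest p. Some of these are not reported here. Other genes were named after their values were seen, for their roles. Replicate 1 and 2 share only a number: deviations of same-numbered controls correlated at 0.389, over 2 pairs. Replicates of a group were not the same library: chi-square over degrees of freedom was 68.4 for the BKO control pair and 224 for the EKO control pair.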

Additional observations from a re-analysis of the deposited data

Results flagged for a closer look

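Of 39 genes and 28 lists checked for a control library whose gap to its nearest neighbour took up most of the range of the 4, 2 genes and 4 lists were set apart; chance sets apart about 5% of such groups. In EKO control 2, Chga stood at 10644.7 CPM, against 5158 to 5672 CPM in the other 3 libraries, and the islet hormones summed to 290091 CPM, against 204789 to 218456. In EKO control 1, Clu stood at 4117.4 CPM, against 253 to 834 in the others. The acinar cell list summed there to 11100.7 CPM, against 752 to 1151, the stellate cell and fibroblast list to 3575.73 CPM, against 203 to 691, and the progenitor and dedifferentiation list to 362.731 CPM, against 114 to 142. Of the last sum Aldh1a3 made up 176 CPM. All 6 were in an EKO control.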

How the results depend on the processing

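Of the counts of genes called between the control groups, 1 in edgeR, DESeq2 size factors, limma-voom and leaving out Ins1, Ins2 and acinar genes gave 1 as well. No filter on low counts gave 7, DESeq2 218, and the 4 control libraries alone 0 in edgeR, with 549 genes at an unadjusted p under 0.05; the replicate number as a block (replicate block) gave 2, Gbp4 and Gbp8. Without 1 library at a time the count ran from 0 (without BKO control 1 or BKO control 2, with 433 and 457 genes at an unadjusted p under 0.05) to 5 (without EKO control 1); without EKO control 1 or EKO control 2 the genes at an unadjusted p under 0.05 numbered 1679 and 1752, against 833 with all libraries. The numbers do not pair the samples, so a changed call under the block is no sign of a weaker effect. Log2 fold changes ran from -1.81 to 0.19 for Ucn3 and from -0.78 to 0.12 for Pfkm with 1 library left out, and turned round without EKO control 2. Over all alternative settings, the named genes gave 672 log2 fold changes. Of these 635 kept direction and side of the threshold, 32 passed it, 3 no longer did and 2 turned round. The 32 came from DESeq2 (25), no filter on low counts (6) and the replicate block (1). The share of the first 10 genes was 13.9% and that of insulin 8.99% over all reads counted by HTSeq, and the first 10 held 11.4% without Ins1, Ins2 and acinar genes, where insulin has no value. Genes of at least 1 CPM numbered 12039 to 13531 over all settings. The causes of these shifts other than the denominators and the libraries left out were not tested. Depth limits genes below 1 CPM.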
